A study of Nasonia vitripennis with 6 samples.

Results

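Nv-emp (Nasvi2EG025794) and Nv-neprilysin (Nasvi2EG012843) were the 2 ventral genes of the wasp Nasonia vitripennis whose transcripts were lower than in water-injected controls after knockdown of Toll and also after knockdown of BMP signalling. They were chosen by those measured levels, from the 21 genes that the study's annotation lists with a ventral expression domain. Of these 21, 19 could be paired with a locus of the expression table, which holds 20033 loci, and 10241 loci passed the filter on low counts. Both genes passed it, and so did the 17 other paired ventral genes.

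RNA came from pooled embryos collected 4 to 7 h after egg lay, while cell fates along the dorsoventral axis are being set. These embryos ranged from the next-to-last syncytial division to the start of gastrulation. Their mothers had been injected as yellow pupae (parental RNA interference, pRNAi) with water (2 libraries, titled h2o1704 and h2o805), with Toll dsRNA (2 libraries, TollA1611 and TollA2610), or with dsRNA against a BMP ligand. For Toll, the study made independent dsRNAs from parts of the TollA gene that do not overlap. The BMP group of 2 libraries joins 1 library of gbb1 dsRNA (gbb11611) and 1 library of dpp dsRNA (dpp2610), so neither ligand has a replicate. Each library was a pool of whole embryos, and for such bulk samples fewer cells of a type and less RNA per cell cannot be told apart. The numbers in the titles of the water pools are not those of the knockdown pools, so for a gene lower in both knockdowns any difference between these sets of pools and the effect of injected dsRNA cannot be told apart.

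Toll is a transmembrane receptor whose ventral activation sends NF-kB factors into the nuclei and starts mesoderm genes such as twist. BMP ligands such as Dpp and Gbb are secreted factors that signal through receptor kinases and Smad proteins and specify dorsal fates in insects. In Nasonia, Toll starts the ventral program while BMP signalling patterns most of the axis and confines some, but not all, ventral genes to the ventral side.

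Nv-emp takes its name from Drosophila epithelial membrane protein and belongs to the CD36 family of scavenger receptors, membrane proteins that bind lipoproteins and other lipid ligands. The annotation lists it as a receptor with a role in adhesion, in a narrow ventral stripe. The study describes this stripe as gradually lost from the main body of the embryo before gastrulation, while staying at the poles. The study also found Nv-emp later in the serosa, the outer extraembryonic membrane that forms from the dorsal side. Nv-neprilysin resembles the neprilysins, membrane-bound zinc metalloproteases that cleave small peptides outside the cell. It is annotated as a protease with a role in morphogenesis, also in a narrow ventral stripe but only at the posterior. The Nv-emp locus spans positions 10403 to 40887 of scaffold 279, and the Nv-neprilysin locus positions 757399 to 776399 of scaffold 32, both in assembly 1.0, and each locus carries 1 gene identifier.

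The labels were checked on the gene targeted in the Toll libraries and on markers of the dorsoventral fates. No level of the targeted ligand genes dpp and gbb is given here, so which BMP library belongs to which ligand was not checked this way. The transcript of the receptor gene Nv-TollA (Nasvi2EG005329) had 101 and 128 FPKM (the authors' fragment density, scaled to transcript length and library size) in water, 1.23 and 4.92 after Toll pRNAi, and 101 and 110 after BMP pRNAi. Both mesoderm markers, Nv-twi and Nv-sna, were paired with a locus, and their summed level was 57.3 to 60.5 FPKM in water, 10.5 to 14.1 after Toll pRNAi and 110 to 130 after BMP pRNAi. For the pair of serosa markers, the homeobox gene Nv-zen and the T-box gene Nv-dorsocross, the sum was 52.5 to 58.1 FPKM in water, 67.8 to 72.3 after Toll pRNAi and 16.0 to 16.4 after BMP pRNAi. The neuroectoderm marker Nv-vnd had 12.1 to 12.3, 7.98 to 9.76 and 25.9 to 36.5 FPKM in the same order, and no marker was at 0 in any group. Total fragments ran from 22754267 to 30590172 per library.

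Nv-emp transcript stood at 31 FPKM (2051 fragments) in h2o1704 and 32.4 (2659 fragments) in h2o805. After Toll pRNAi it had 20.0 FPKM (1518 fragments) in TollA1611 and 18.5 (1256 fragments) in TollA2610. After BMP pRNAi it had 21.0 FPKM (1931 fragments) in gbb11611 and 19.7 (1629 fragments) in dpp2610. All 4 knockdown libraries thus lay below both water libraries, as at 13.7% of all loci tested, an order that the choice of the gene favours. The Toll and BMP libraries overlapped each other. The water mean was 31.7 ± 0.947 FPKM (SD, n = 2), the Toll pRNAi mean 19.3 ± 1.08 and the BMP pRNAi mean 20.4 ± 0.881. The last 2 were 39.3% and 35.8% below water.

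Nv-neprilysin was the less abundant transcript per length. Its level was 11.7 FPKM (1169 fragments) in h2o1704 and 13.2 (1632 fragments) in h2o805. It was 5.30 FPKM (592 fragments) in TollA1611 and 5.99 (592 fragments) in TollA2610. Of the BMP libraries, gbb11611 held 7.09 FPKM (959 fragments) and dpp2610 held 8.29 (1013 fragments). Here the 3 groups did not overlap: both Toll libraries were lowest, both BMP libraries intermediate and both water libraries highest. Both water libraries exceeded all knockdown libraries at 13.7% of all loci tested, an order that the choice of the gene favours. Both Toll libraries lay below both BMP libraries at 34.4%. The order of all 3 groups together was not counted over all loci. Its water mean was 12.5 ± 1.07 FPKM (SD, n = 2), its Toll pRNAi mean 5.65 ± 0.483 and its BMP pRNAi mean 7.69 ± 0.850, which lay 54.8% and 38.4% below water.

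**Figure D1:**
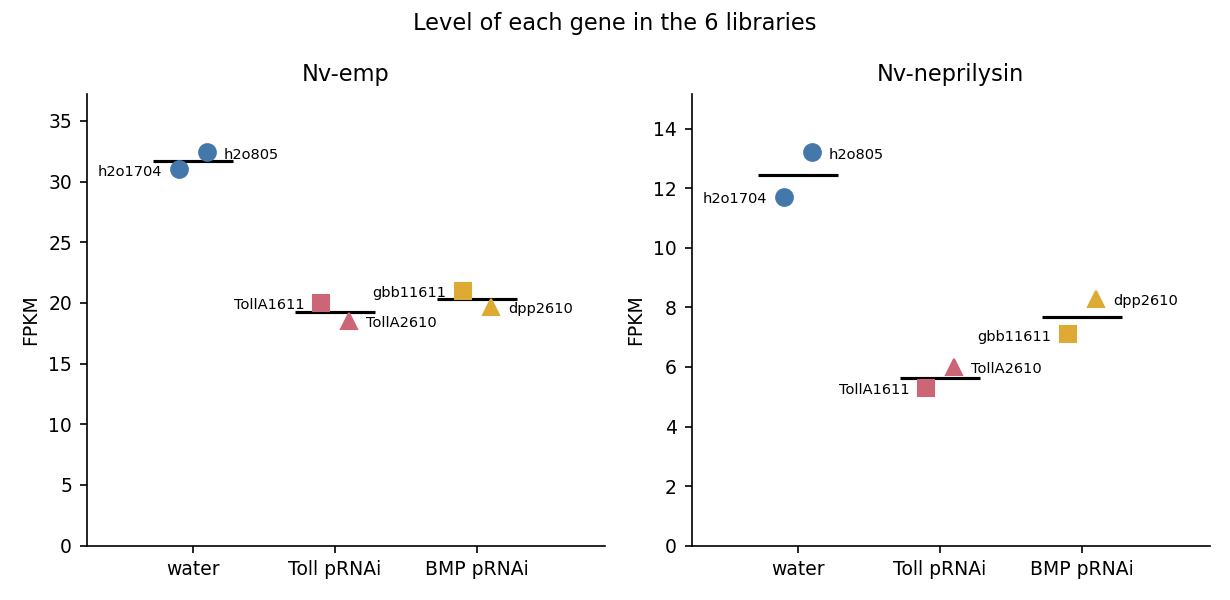
Level in FPKM (linear axis from 0) of Nv-emp (left) and Nv-neprilysin (right) in each of the 6 libraries, with the library's title beside each point and a bar at the mean of the 2 libraries of a group. For both genes the 4 knockdown libraries lie below both water libraries, and only for Nv-neprilysin do the Toll libraries (5.30 and 5.99 FPKM) lie below both BMP libraries (7.09 and 8.29 FPKM).

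As a description of the values that chose these genes, edgeR's quasi-likelihood fit over the fragments of all 6 libraries put Nv-emp at a log2 fold change of -0.69 (95% interval -0.88 to -0.50) after Toll pRNAi and -0.65 (-0.84 to -0.46) after BMP pRNAi. For Nv-neprilysin the log2 fold changes were -1.15 (-1.41 to -0.90) and -0.74 (-0.99 to -0.49). A call is a Benjamini-Hochberg adjusted p under 0.05 over all loci tested. By that rule Toll pRNAi lowered 1.03% of loci and BMP pRNAi 3.49%, and 27 loci (0.264%) were lower in both, these 2 genes among them. The study, which tested with Cuffdiff, describes its ventral genes as either increased or not significantly changed after BMP knockdown. By point value alone, 31.5% of loci were below water in both knockdowns, and at 13.7% of loci both water libraries exceeded all 4 knockdown libraries in FPKM. Among the 27 loci, 1 other gene of the study's annotated set was found, the homeobox gene Nv-homeobrain (Nasvi2EG007407), which is annotated with an anteroposterior domain and was named after its values were seen.

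These calls against water did not all survive the loss of a library. Leaving out 1 library at a time kept the Nv-emp log2 fold change between -0.74 and -0.64 after Toll pRNAi. Its adjusted p in edgeR was nevertheless 0.054 without h2o1704, 0.12 without h2o805, 0.11 without TollA1611 and 0.21 without TollA2610. After BMP pRNAi it was 0.064 without h2o805, at a log2 fold change of -0.62. For Nv-neprilysin the adjusted p was 0.058 without TollA1611, at a log2 fold change of -1.07 after Toll pRNAi, and 0.11 without h2o805, at -0.65 after BMP pRNAi.

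The direct comparison of the 2 knockdowns uses no water library to set the difference, and the choice of the genes did not use it as a criterion, although it equals the difference of their responses to each knockdown. For Nv-emp no difference between them was detectable, the log2 difference being -0.04 (Toll pRNAi minus BMP pRNAi, standard error 0.083, 95% interval -0.23 to 0.15, edgeR adjusted p = 0.82). This difference turned to 0.01 without TollA2610 and also without gbb11611. The interval leaves room for a level 0.23 lower or 0.15 higher on the log2 scale after Toll pRNAi.

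Nv-neprilysin was 0.752 times as high after Toll pRNAi as after BMP pRNAi. The log2 difference was -0.41 (standard error 0.11, 95% interval -0.67 to -0.15), and with an edgeR adjusted p of 0.069 it did not pass the threshold, at which 6.89% of all loci tested were called. Without gbb11611 the log2 difference was -0.53 and did pass (edgeR adjusted p = 0.019), and it passed under 4 of 15 alternative settings in all, with adjusted p between 0.0057 and 0.38. Both Toll libraries lay below both BMP libraries, an order that 34.4% of all loci tested also showed.

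Both genes gave reads that the authors' Cuffdiff run assigned without ambiguity. Their fragments were whole numbers in all 6 libraries, and the variance that the run reports for fragments of uncertain origin was under 1e-06 in each condition. A variance under 1e-06 in each condition was also found at 80.5% of the loci tested. Whole-number fragments were not counted over all loci.

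Replicates of Nv-emp differed little. Its log2 difference within a pair was 0.06 in water, 0.11 after Toll pRNAi and 0.09 between the gbb and dpp libraries. For Nv-neprilysin the corresponding values were 0.17, 0.17 and 0.23. Over the 6806 loci with a mean of at least 3 FPKM, the median was 0.10, 0.07 and 0.16. The gbb library had the higher Nv-emp level of the 2 BMP libraries and the lower Nv-neprilysin level. Neither difference between ligands has a replicate, and both were close in size to those between the Toll libraries.

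Because FPKM is scaled to length, the levels of both genes can be set against each other within a library. Nv-emp stood 2.65 and 2.45 times as high as Nv-neprilysin in h2o1704 and h2o805. The FPKM ratio was 3.77 and 3.09 after Toll pRNAi, above both water values. It was 2.96 in the gbb library and 2.38 in the dpp library, on either side of the water values. Against all loci tested, the mean level of Nv-emp stood at percentile 72.2 in water, 62.0 in the Toll libraries and 62.7 in the BMP libraries, and that of Nv-neprilysin at percentiles 53.8, 41.3 and 45.2.

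The other ventral genes differed from both in their response to BMP pRNAi. Of the 17 tested, 15 were lower than water after Toll pRNAi (not Nv-optix or Nv-meteorin) and none higher, beside 1.03% and 2.6% of all loci. The median log2 fold change of the 17 was -2.48 (range -4.20 to -0.56), where the median of all loci was 0.02. After BMP pRNAi 8 were higher (2.06% of all loci were) and none was lower. Their median was 0.68 (range 0.10 to 1.21), beside 0.01 over all loci. These counts moved with single libraries: 2 were called higher after BMP pRNAi without h2o1704 and also without h2o805, and 12 without dpp2610, while 11 to 17 were called lower after Toll pRNAi. No other ventral gene was thus below water in both knockdowns by point value. This contrast with the 2 genes follows from how those were chosen and was not tested. The study chose the genes it annotated by their differential expression in these same libraries. Counts of calls in this and the later lists are therefore not independent of that choice. The shares and medians of all loci beside them are given as description only.

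The values nearest to the boundary of the choice belonged to a gene with no assigned name. Nasvi2EG004500 had 28.2 and 28.4 FPKM in water, 1.82 and 2.17 after Toll pRNAi, and 25.9 (gbb) and 35.9 (dpp) after BMP pRNAi. Its log2 fold change after BMP pRNAi was 0.10, and without dpp2610 it was -0.14. On the other side of the boundary the nearest value was the -0.65 of Nv-emp after BMP pRNAi.

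**Figure D2:**
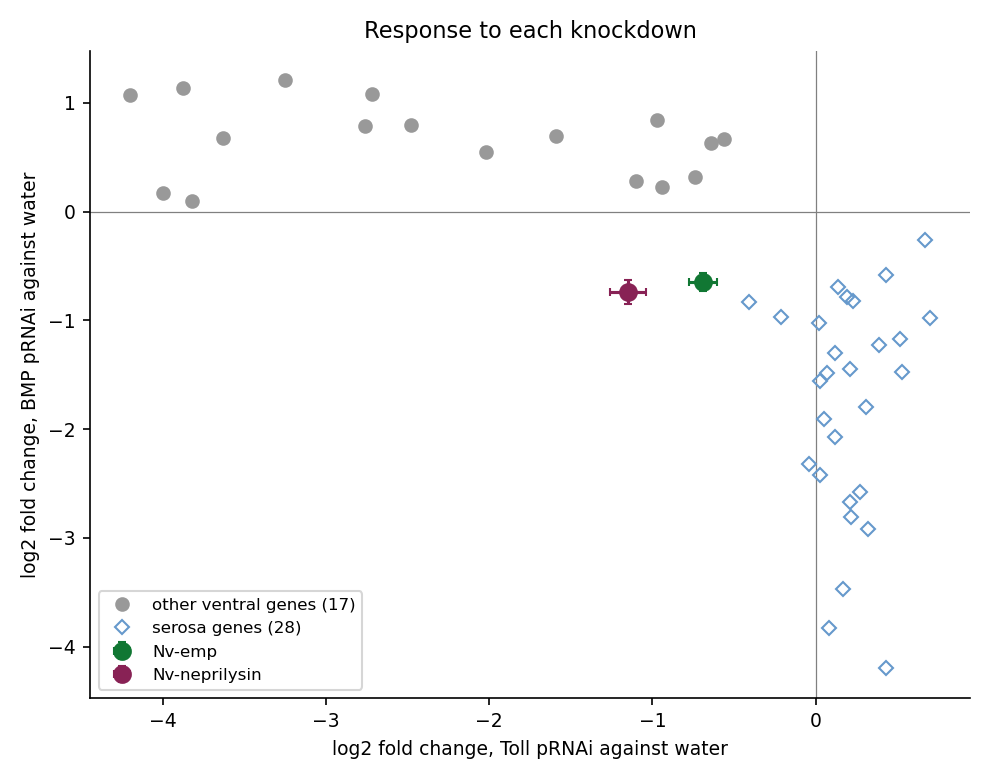
Log2 fold change after Toll pRNAi (x axis) against that after BMP pRNAi (y axis), both relative to the same water libraries, for Nv-emp and Nv-neprilysin (bars: standard error), the 17 other ventral genes and 28 serosa genes. All 17 other ventral genes lie left of 0 and above 0, from 0.10 to 1.21 on the y axis, whereas Nv-emp (-0.69, -0.65) and Nv-neprilysin (-1.15, -0.74) lie below 0 on both axes, as their choice requires.

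Between the 2 knockdowns, all 17 other ventral genes were lower after Toll pRNAi, at log2 differences from -5.28 (Nv-twi) to -1.06 (Nv-cg2254). By this call rule 1.06% of all loci tested were lower after Toll pRNAi. Without TollA2610, 15 of the 17 were called. Nv-emp at -0.04 and Nv-neprilysin at -0.41 lay above that whole range, an order that the choice of genes lower after BMP pRNAi favours.

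**Figure D3:**
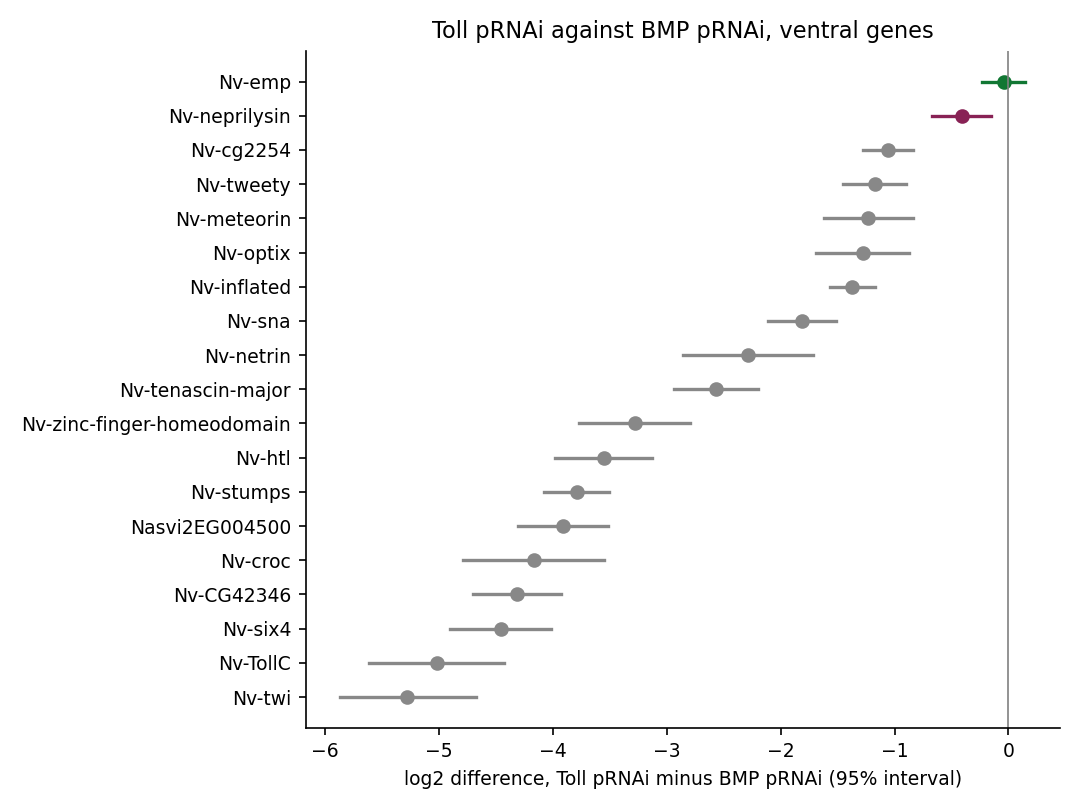
Log2 difference (Toll pRNAi minus BMP pRNAi) with its 95% interval for the 19 ventral genes paired with a locus, sorted by size. The interval of Nv-emp (-0.23 to 0.15) spans 0, that of Nv-neprilysin (-0.67 to -0.15) does not, and the other 17 point values run from -5.28 to -1.06.

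Nv-neprilysin is not the only ventral gene with a domain restricted along the body axis. A list of 3 others was used here, which does not hold every gene that the study describes with such a domain. Of these 3, 2 were paired with a locus. Nv-croc, a forkhead transcription factor, had 6.79 and 6.77 FPKM in water, 0.251 and 0.623 after Toll pRNAi, and 7.64 and 7.90 after BMP pRNAi. Its Toll libraries were far below water, and its BMP libraries slightly above. The level of Nv-meteorin, whose vertebrate relatives are secreted factors of the nervous system, was 2.44 and 2.45 FPKM in water, 1.5 and 1.35 after Toll pRNAi, and 4.36 and 3.69 after BMP pRNAi. The log2 fold changes with BMP pRNAi were 0.17 (adjusted p = 0.59) for Nv-croc and 0.67 (adjusted p = 0.052) for Nv-meteorin in edgeR's test, so neither passed it.

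The study found Nv-emp in the serosa only from about the onset of gastrulation. For 3 other ventral genes it describes dorsal expression in addition to the ventral domain. These are the oxidoreductase homologue Nv-cg2254, the integrin alpha chain gene Nv-inflated and the FGF receptor gene Nv-htl. The FPKM of Nv-cg2254 was 18.0 and 18.1 in water, 10.5 and 10.4 after Toll pRNAi, and 21.9 and 25.6 after BMP pRNAi. Nv-inflated had 7.23 FPKM in both water libraries, 3.16 and 3.49 after Toll pRNAi, and 8.81 and 9.02 after BMP pRNAi. In both, the Toll libraries lay below water and the BMP libraries above it. Nv-htl went from 8.09 and 7.69 FPKM in water to 0.853 and 1.43 after Toll pRNAi and to 15.8 and 12.7 after BMP pRNAi. All 3 were called lower after Toll pRNAi, as were 1.03% of all loci. After BMP pRNAi 1 was called higher (Nv-htl, log2 fold change 0.79, edgeR adjusted p = 0.031), as were 2.06% of all loci. The other 2 had log2 fold changes of 0.32 and 0.28. Without h2o1704, and likewise without h2o805, 2 of the 3 were called after Toll pRNAi and none after BMP pRNAi. The Nv-emp log2 fold change of -0.69 after Toll pRNAi was close to the -0.74 of Nv-cg2254. The Nv-emp value of -0.65 after BMP pRNAi was on the other side of 0 from all 3. That contrast follows from how Nv-emp was chosen and was not tested.

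The genes annotated with a serosa pattern were mostly lower after BMP pRNAi, as Nv-emp and Nv-neprilysin were, and not after Toll pRNAi. Of the 28 tested, 26 were lower after BMP pRNAi (3.49% of all loci were). The median log2 fold change of the 28 was -1.47 (range -4.20 to -0.26), beside 0.01 over all loci. After Toll pRNAi none was lower and 4 were higher (Nv-wee1, Nv-shrub, Nv-dorsocross and Nasvi2EG009559), at a median of 0.20, where 2.6% of all loci tested were higher. By point value 3 were below water in both knockdowns (Nv-CG4702, Nv-larval translucida and Nasvi2EG019528), and none of these was called lower after Toll pRNAi. The count higher after Toll pRNAi was 0 without h2o1704, h2o805, TollA1611 or TollA2610 and 9 without gbb11611 or dpp2610, where 1 was also called lower, and that lower after BMP pRNAi was 20 to 27. The summed serosa markers given above were lower in the BMP libraries, and the mesoderm markers in the Toll libraries, and the part of these shifts in the levels of Nv-emp and Nv-neprilysin was not tested.

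Genes that share an annotation with Nv-emp showed each response separately. Of 5 other receptor genes, 2 were lower after Toll pRNAi (Nv-TollC and Nv-htl, which were both higher after BMP pRNAi), and the other 3 were lower after BMP pRNAi. The median log2 fold changes of these receptors were -0.08 and -0.70, beside 0.02 and 0.01 over all loci. Over all loci tested, 1.03% were lower after Toll pRNAi, 3.49% lower after BMP pRNAi and 2.06% higher after it. The 10 other adhesion genes counted 4 lower after Toll pRNAi, 6 lower after BMP pRNAi and 1 higher after it, with none lower in both. Without h2o1704, and likewise without h2o805, no adhesion gene was called after BMP pRNAi and neither receptor was called higher after it. By point value 2 adhesion genes were below water in both knockdowns. Nv-wing blister, a laminin alpha chain also listed as a receptor, had log2 fold changes of -0.08 (edgeR adjusted p = 0.81) and -0.70 (adjusted p = 0.039). Nv-blistery, the tensin homologue that links integrins to actin, had -1.68 (adjusted p = 0.015) and -0.12 (adjusted p = 0.72). Its locus carries 2 gene identifiers, so these values may include reads of another gene model. Some other listed genes, such as the ventral genes Nv-stumps and Nv-netrin, also lie on loci with more than 1 identifier.

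For Nv-neprilysin, 2 of 3 other protease genes were tested, Nv-echinus and the serine protease Nv-sp67. Both were lower after BMP pRNAi, at log2 fold changes of -0.68 and -2.92, and neither was called after Toll pRNAi, at 0.42 and 0.32. Among 5 other morphogenesis genes 1 was lower (Nv-cg2254) and 1 higher (Nv-CG14692) after Toll pRNAi, and 3 were lower after BMP pRNAi (Nv-echinus, Nv-CG14692 and Nv-expanded). Over all loci tested, 1.03% were lower and 2.6% higher after Toll pRNAi, and 3.49% were lower after BMP pRNAi. Without h2o1704, and likewise without h2o805, 1 protease and 1 morphogenesis gene were called after BMP pRNAi, and no morphogenesis gene after Toll pRNAi. None of these proteases or morphogenesis genes was below water in both knockdowns by point value.

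Other loci shared the pattern of the 2 genes over the 6 libraries. Likeness was measured as the root mean square difference of log2(FPKM + 1), with each locus centred on its own mean, against 243 other loci that had a mean of at least 3 FPKM and exactly 1 gene identifier. Identifiers came from a table held here only in part, so loci outside it were not compared. In all, 6806 loci had a mean of at least 3 FPKM. Medians over the 243 loci therefore need not hold for loci in general. The locus nearest to Nv-emp was Nasvi2EG022244, with a root mean square difference of 0.0580 and Pearson's r of 0.98 over the 6 libraries. Its level was 14.9 and 16.8 FPKM in water, 9.01 and 9.09 after Toll pRNAi, and 10.7 and 9.81 after BMP pRNAi. Like Nv-emp, it had both water libraries above all others. Next came Nasvi2EG021220 (root mean square difference 0.0821), Nasvi2EG005246 (0.108), Nasvi2EG000457 (0.116) and Nasvi2EG011800 (0.117), beside a median of 0.486 over the 243 loci. All 5 were below water by point value in both knockdowns, as were 31.5% of all loci tested. Nearness to a gene chosen for that pattern favours this. These r values rest on 3 groups of 2 libraries that share their group means, and are given as descriptions.

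Nv-neprilysin had the same nearest locus, Nasvi2EG022244, but at a larger root mean square difference of 0.155, and its median over the candidates was 0.616. Nasvi2EG000457 (0.172), Nasvi2EG012669 (0.187), Nv-emp itself (0.189) and Nasvi2EG001333 (0.208) followed. Nv-emp was thus the fourth nearest locus to Nv-neprilysin, whereas Nv-neprilysin ranked 22 among the loci nearest to Nv-emp. Between these genes Pearson's r was 0.92. Both were chosen for lying below water in both knockdowns, so their likeness over these libraries is favoured by the choice. Of the 5 loci named for each gene, 2 were shared.

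**Figure D4:**
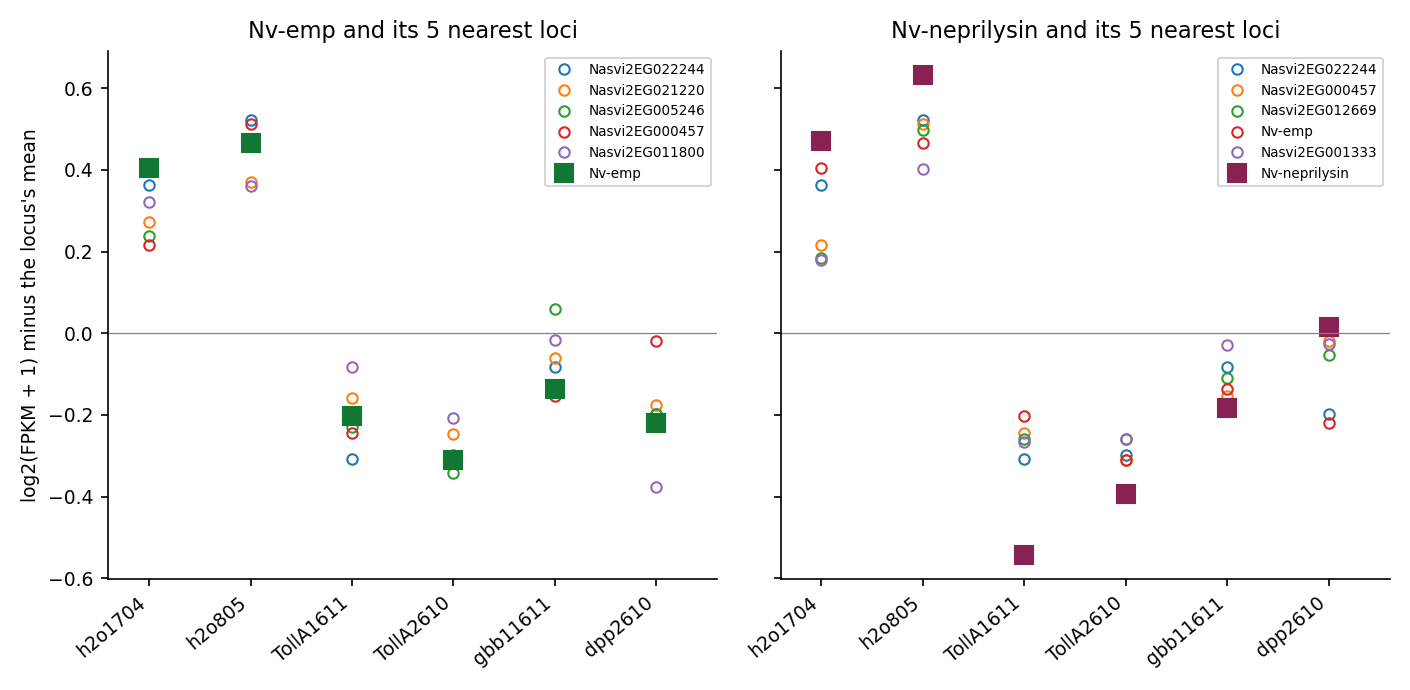
Profiles over the 6 libraries of Nv-emp (left) and Nv-neprilysin (right), filled squares, and of the 5 loci nearest to each, open circles, as log2(FPKM + 1) minus the mean of each locus. Every point in the water libraries lies above 0, the points of the Toll libraries lie below 0, and Nv-neprilysin has the lowest points of its panel in both Toll libraries.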

How the data were processed

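Poly-A RNA of 6 libraries of pooled Nasonia vitripennis embryos was sequenced as paired reads. The authors mapped them with TopHat2 2.0.3 to genome assembly 1.0 with the gene models of annotation 2.0, and Cuffdiff (Cufflinks 2.0.2) compared the 3 conditions. The table they deposited gives the expected count of each locus in each library, unscaled, and the FPKM from the same run. A second table deposited by the authors gives a scaled count signal per condition with its ambiguity variance, and was used only for that variance. Numbered replicates were matched to libraries by the order of the authors' printed Cuffdiff command, and 0 columns of values stayed unmatched. Gene identifiers came from the study's supplementary table, held here in part (1799 loci, 2019 identifiers).

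Expected counts were rounded and fitted with edgeR 4.0.16 (R 4.3.3; TMM, filterByExpr, quasi-likelihood test, all 6 libraries, a mean per condition), adjusting p over 10241 loci. The labels give 2 biological replicates per condition. With 2 against 2, an exact permutation test of a single value cannot go below p = 0.333, so only fits across all loci were used. Fold changes against water are descriptions, because they chose the genes. Scripts were tested on simulated counts. Alternatives were DESeq2 1.42.0, RLE size factors, other filters, 2 groups only, limma 3.58.1 on log2(FPKM + 1) or log2(FPKM + 0.1), each library left out, and a replicate block.

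The members and lists were chosen with earlier results of these data known. Genes named were the 2 genes, the label checks, ventral genes below water in both knockdowns, ventral genes of restricted or serosa expression, genes of shared annotation below water in both, and the 5 nearest loci. Nasvi2EG004500, Nv-homeobrain and the genes that make up counts of 5 or fewer were named after their values were seen.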

Additional observations from a re-analysis of the deposited data

How the results depend on the processing

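The direction of both genes against water held under all 14 alternatives per comparison. The choice of the genes by these same values favours that, so it is given as description only. Nv-emp ran from -0.74 to -0.64 after Toll pRNAi and from -0.72 to -0.59 after BMP pRNAi, called in 9 and 12 of the 14. Nv-neprilysin ran from -1.24 to -1.02 and from -0.84 to -0.64, called in 12 and 12. Leaving out 1 library gave -0.74 to -0.64 and -0.72 to -0.59 for Nv-emp, and -1.24 to -1.07 and -0.84 to -0.65 for Nv-neprilysin. Where a group is left with 1 library, it is assumed to vary like the others. With limma on log2(FPKM + 0.1), the Nv-emp value of -0.72 after Toll pRNAi lost its call (adjusted p = 0.054). With limma on unfiltered log2(FPKM + 1) values, Nv-emp after BMP pRNAi (-0.61, adjusted p = 0.052) and Nv-neprilysin after Toll pRNAi (-1.02, adjusted p = 0.061) and BMP pRNAi (-0.64, adjusted p = 0.097) lost theirs. The cause was not tested.

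Between the knockdowns, Nv-emp was called under none of 15 alternatives (-0.13 to 0.01, adjusted p 0.49 to 0.98), and the same limits held over libraries left out. Nv-neprilysin ran from -0.53 to -0.33 over libraries left out. It was called with DESeq2 (-0.41, adjusted p = 0.037), with no filter (-0.45, adjusted p = 0.0057) and with the title number as a replicate block (-0.42, adjusted p = 0.017). Libraries with the same title number deviated together at r = 0.127 over 7276 loci, but the labels do not say what the number marks, so it was not read as a pairing. The block raised calls between the knockdowns from 706 to 1369.

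Counts of loci called moved more. For Toll against water, BMP against water and Toll against BMP, in that order, they were 371, 568 and 706. No filter gave 1238, 2053 and 1641. With limma they were 50, 375 and 357 on log2(FPKM + 1), 26, 252 and 313 on log2(FPKM + 0.1), and 78, 73 and 241 with no filter. DESeq2 gave 789 and 1351 against water, and fitting only 2 groups 1343 and 162. Leaving out 1 library gave 22 to 1358, 90 to 2628 and 217 to 2045, with 2628 without gbb11611. Among the 17 other ventral genes, without dpp2610, 1, Nasvi2EG004500, was below water after BMP pRNAi (-0.14). By Pearson's r in place of the root mean square difference, 2 of the 5 loci nearest to Nv-emp and 3 of those nearest to Nv-neprilysin were kept. Both genes had at least 592 fragments in each library, and the small number of libraries limits the precision.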
